A study of Mus musculus with 2 samples.

Results

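Wnt pathway genes were compared between an allograft and an autograft of mouse femur. They were chosen by gene name from the platform's probe annotation, as the Wnt ligands, the Frizzled receptors with Lrp5 and Lrp6, the secreted antagonists of the Sfrp and Dkk families with Frzb and Wif1, the Dishevelled, Axin, Apc, Gsk3b and Ctnnb1 genes of the cytoplasm, and the nuclear Lef1 and Tle genes. The rule used names and no measured value. It found 85 of the 22690 probe sets, which stand for 55 of 12393 named genes. A probe set is a set of short probes whose signals are combined into a single value for the transcript they match.

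The samples were an allograft, which is tissue moved between animals of a species, and an autograft, which is tissue moved within an animal. Both samples were total RNA from bone, labelled as femur and c57Bl/6 (an inbred mouse strain), with 1 array for each graft type. Beyond the strain, the labels do not describe donor and recipient, and they give no genotype, age, treatment, time after grafting or number of animals. A single array per graft type leaves every difference without a replicate check. No test between allograft and autograft was therefore made, and the values describe these arrays.

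Wnt proteins are secreted lipid-modified ligands that bind Frizzled receptors and the co-receptors Lrp5 and Lrp6. Without a ligand, a complex of Axin, Apc and Gsk3b marks beta-catenin, the product of Ctnnb1, for destruction, and with a ligand Dishevelled proteins hold that complex back, so that beta-catenin reaches the nucleus and displaces Tle corepressors from Tcf and Lef factors. In bone the pathway is known for its part in osteoblast formation, in the maturation of growth plate cartilage and in fracture repair, and secreted antagonists restrain it.

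The values are intensities on a linear scale whose medians over the non-control probe sets were 166.8 (allograft) and 184.2 (autograft). A value of at least 175.2, the median of both arrays together, is called above the floor. Lower values were set to this floor before the log2 ratio of allograft over autograft was taken. For a gene with several probe sets the one brightest on average stands for it, and a gene that passed the floor on a single array has a bound for its fold difference. A number in parentheses after a pair of intensities is their log2 ratio.

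Among the Wnt genes above the floor on both arrays, the Tle family genes Tle5 and Tle2, the receptors Fzd9 and Fzd8 and the antagonist Frzb had the widest differences. All of these were lower in the allograft. Sfrp1, another antagonist, was lower by its brightest probe set and above the floor in the allograft alone by another. Tle4, another Tle gene, stood farthest the other way. No ligand or cytoplasmic component was shown to be 1.5-fold apart, 3 ligands and Gsk3b having bounds alone. In all, 24 of the 55 genes passed the floor on both arrays, 6 on the autograft array alone, 0 on the allograft array alone, and 25 on neither. Of all 12393 named genes, 7101 passed on both arrays, 506 on the autograft array alone, 226 on the allograft array alone, and 4560 on neither. Of the 30 Wnt genes above the floor on at least 1 array, 2 (6.67%) were at least 2-fold lower in the allograft, against 0.753% of all genes above it. At least 2-fold higher were 0, against 0.868% of all genes. At 1.5-fold, 6 were lower (5 without Sfrp1), against 6.56% of all genes, and 1 was higher, against 4.00%. The 6 genes that passed the floor through the autograft array alone could only come out lower. Among the 24 genes above the floor on both arrays, 13 had a ratio below 0 (54.2%, against 58.5% of all 7101 such genes), and the median log2 ratio was -0.06, against -0.07 for all of them. At least 2-fold lower were 2 of the 24 and at least 2-fold higher 0, against 0.676% and 0.887% of those genes. At least 1.5-fold lower were 5 and higher 1, against 6.34% and 4.10%. The share below 0 and the median of the Wnt genes thus lay near those of all genes. Their shares at least 2-fold and 1.5-fold lower lay above those of all genes. Those shares rest on 2 and 5 of the 24 members and were not tested.

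**Figure D1:**
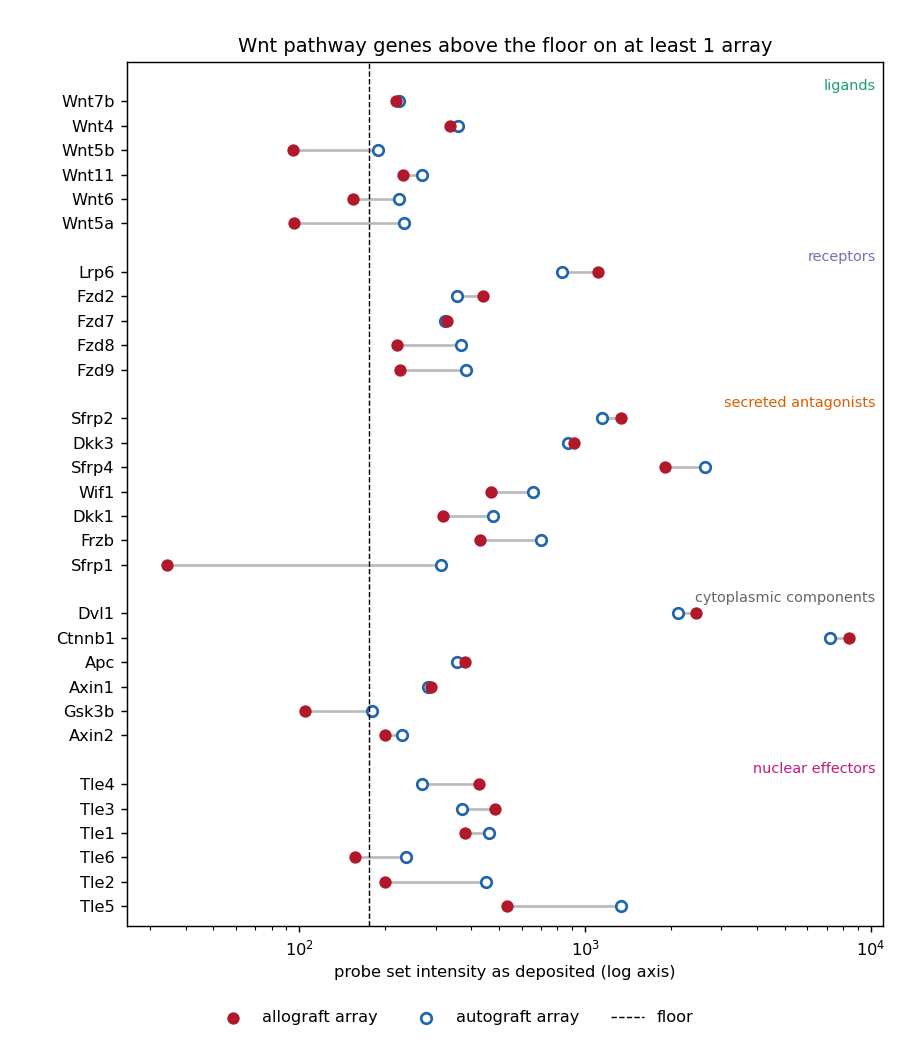
Deposited intensity (log axis) of the 30 Wnt pathway genes above the floor on at least 1 array, by role, with filled points for the allograft array, open points for the autograft array and a dashed line at the floor of 175.2. Tle5 (allograft 532, autograft 1339) and Tle2 (allograft 199.4, autograft 449.8) are far apart with both points above the floor, and Sfrp1 spans the floor (allograft 34.4, autograft 314).

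**Figure D2:**
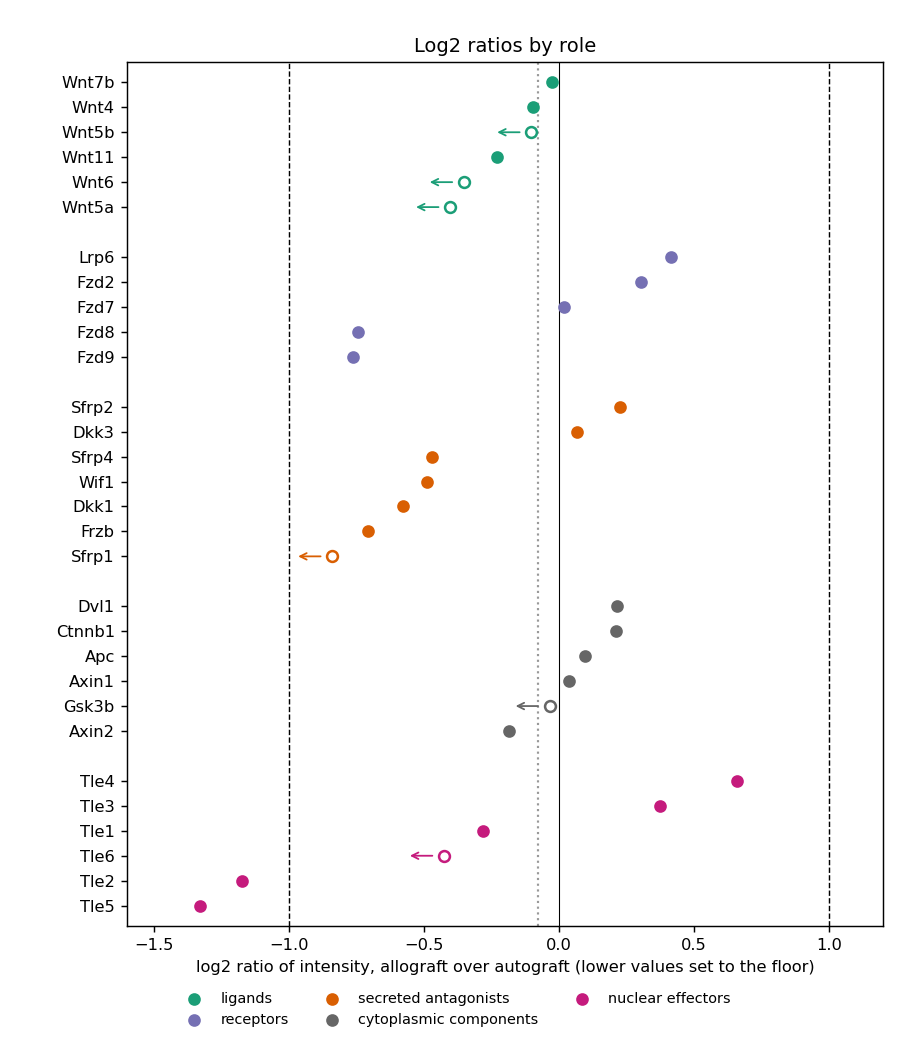
Log2 ratio of allograft over autograft for the same 30 genes by role; open points with arrows are bounds for genes above the floor on the autograft array alone, dashed lines mark 2-fold, and the dotted line is the median of all named genes above the floor (-0.08). Tle5 (-1.33) and Tle2 (-1.17) are the members beyond the 2-fold lines, and Tle4 (0.66) is the highest.

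Over the 1925 genes with at least 2 probe sets that passed the floor on both arrays, the log2 ratios of the brightest and the next probe set differed with an SD of 0.44. This SD describes how far probe sets of a gene part on these arrays, and it is no replicate error. The ratios of Tle5, Tle2, Fzd9, Fzd8, Frzb, Tle4, Dkk1, Wif1 and Sfrp4 were farther from 0 than this value, and those of the other 15 members above the floor on both arrays were nearer. These 9 of 24 (37.5%) stand beside 21.0% of all 7101 genes above the floor on both arrays.

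**Figure D3:**
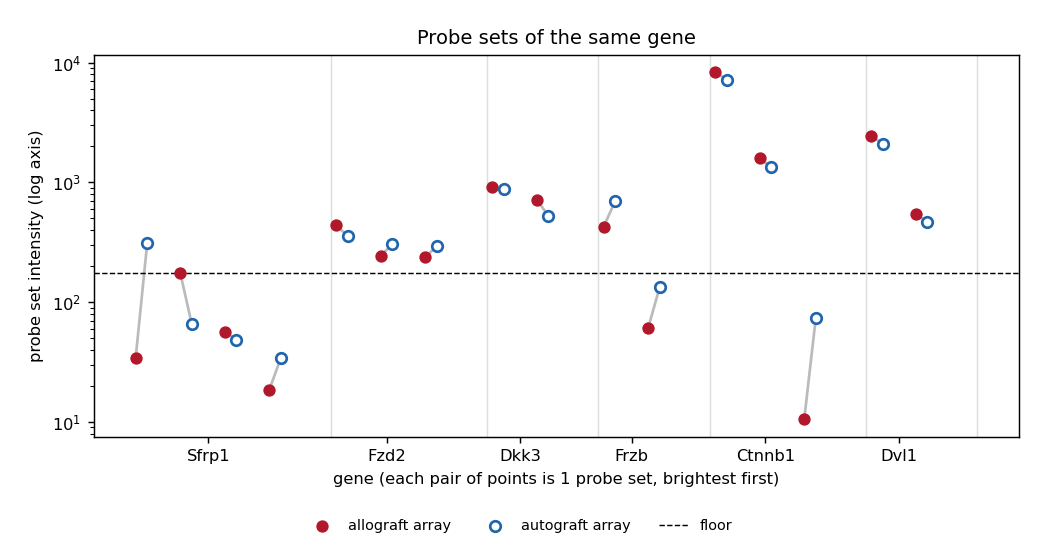
Intensity (log axis) of every probe set of 6 Wnt pathway genes with more than 1, brightest first within a gene, with filled points for the allograft array, open points for the autograft array and a dashed line at the floor. The probe sets of Ctnnb1 and Dvl1 above the floor run the same way, while those of Fzd2 and Sfrp1 run opposite ways.

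RefSeq promoters of GRCm38.p6 were listed for 38 of the 55 genes. The window from 250 bases before to 50 after the start was searched on both strands for the Tcf and Lef core motifs CTTTGAT and CTTTGAA, which cannot overlap on a strand. At least 1 motif was found in 7.89% of these genes, against 9.88% of all 27025 genes with a listed promoter. The median share of G and C letters was 66.7% in the member promoters and 52.7% in all promoters. The motif shares were not matched for this. The 3 members with a match were Dkk1, Wnt11 and Wnt5b, and Tle2, the member with the lowest ratio among those with a listed promoter, had none. Wnt11 and Wnt5b have further listed promoters without a motif, and the one with the motif was taken. These 4 genes are shown, so that promoters with the motif can be read beside one without. The 250 bases before the start of each follow, on the strand of the gene, with the motif in capitals (in Wnt11 it is read on the opposite strand). They are chr10:81575037-81575286 on the plus strand for Tle2, chr19:30549497-30549746 on the minus strand for Dkk1, chr7:98834862-98835111 on the plus strand for Wnt11 and chr6:119449387-119449636 on the minus strand for Wnt5b. A match describes the letters and is not shown to be a binding site.
Tle2: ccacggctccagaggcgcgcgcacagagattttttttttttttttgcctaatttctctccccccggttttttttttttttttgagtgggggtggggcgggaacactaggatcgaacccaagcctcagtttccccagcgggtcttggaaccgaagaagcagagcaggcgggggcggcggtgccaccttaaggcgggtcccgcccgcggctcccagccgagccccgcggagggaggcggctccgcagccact
Dkk1: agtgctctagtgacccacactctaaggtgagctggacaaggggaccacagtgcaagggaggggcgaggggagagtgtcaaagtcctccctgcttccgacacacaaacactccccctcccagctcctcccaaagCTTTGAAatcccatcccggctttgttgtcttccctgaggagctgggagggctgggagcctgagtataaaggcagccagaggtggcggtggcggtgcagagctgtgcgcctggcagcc
Wnt11: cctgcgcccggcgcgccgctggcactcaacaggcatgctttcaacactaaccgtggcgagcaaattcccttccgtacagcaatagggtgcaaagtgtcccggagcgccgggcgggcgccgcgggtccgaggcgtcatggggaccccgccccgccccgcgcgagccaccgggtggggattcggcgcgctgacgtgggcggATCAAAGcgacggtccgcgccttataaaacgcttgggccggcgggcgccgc
Wnt5b: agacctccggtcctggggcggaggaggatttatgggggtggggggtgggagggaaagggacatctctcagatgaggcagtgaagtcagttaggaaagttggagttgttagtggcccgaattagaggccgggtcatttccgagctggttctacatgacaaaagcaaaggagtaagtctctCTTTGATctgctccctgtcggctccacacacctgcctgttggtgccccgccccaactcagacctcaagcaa

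Of the 19 ligand genes, 3 passed the floor on both arrays and 3 on the autograft array alone. Wnt4 read 336 in the allograft, against 359.6 in the autograft (log2 ratio -0.10), Wnt11 229.5 in the allograft against 269.0 in the autograft (-0.23), and Wnt7b, known for a part in osteoblast differentiation in the mouse, 219 in the allograft against 222 in the autograft (-0.02). Those 3 ratios were nearer to 0 than the probe set SD. Wnt4 and Wnt7b changed sign under quantile normalization, at 0.01 and 0.11.

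Wnt5a, which acts mainly outside the beta-catenin branch and in growth plate cartilage, read 95.8 in the allograft, against 232 in the autograft, at least 1.32-fold lower. Wnt6 read 155 in the allograft against 224 in the autograft, at least 1.28-fold lower. Wnt5b, of which the listed promoter with a motif is printed above, read 94.8 in the allograft against 188 in the autograft, at least 1.07-fold lower. These 3 bounds grow with a lower floor: at the 25th percentile Wnt5a stood at a log2 ratio of -1.27. The other 13 ligand genes lay below the floor on both arrays, between 1.7 and 170.5. The upper end of that range was Wnt10a in the autograft (27.5 in the allograft), which a lower floor would bring in. The second probe sets of Wnt5a, Wnt5b and Wnt7b were also below the floor on both arrays, between 13.3 and 97.9.

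In the RefSeq gene order of GRCm38.p6, 4 pairs of ligand genes are neighbours: Wnt6 with Wnt10a, Wnt3a with Wnt9a, Wnt3 with Wnt9b, and Wnt1 with Wnt10b. Of these 8 genes Wnt6 was above the floor, on the autograft array alone, and the other members of the pairs were below it on both arrays, so their values have no order here.

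Among the receptors, 5 of the 11 on the array were above the floor, all on both arrays. Fzd9, a Frizzled receptor known from mouse osteoblasts, read 224.9 in the allograft, against 382 in the autograft (log2 ratio -0.76). Fzd8 read 219.9 in the allograft against 369 in the autograft (-0.75). Both receptors were lower in the allograft by less than 2-fold, and they have 1 probe set each.

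Lrp6, the co-receptor that binds Axin once a ligand is present, read 1112 in the allograft against 833 in the autograft (log2 ratio 0.42). Fzd7 read 327 in the allograft against 323 in the autograft (0.02). Fzd2 read 439 in the allograft against 356 in the autograft by its brightest probe set (0.30), but 245 in the allograft against 304 in the autograft (-0.31) and 239 in the allograft against 295 in the autograft (-0.30) by the others, so its direction changed with the probe set. The receptors Fzd1, Fzd3, Fzd4, Fzd5, Fzd6 and Lrp5 were below the floor on both arrays, between 12.4 and 138, and no probe set is named Fzd10 here. The second probe sets of Lrp6 and Fzd7 were below it too, between 6.8 and 12.1.

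The secreted antagonists keep ligands from their receptors, the Sfrp proteins, Frzb and Wif1 by binding Wnt proteins and Dkk1 by binding Lrp5 and Lrp6. Of the 10 genes, 6 passed the floor on both arrays, 4 of them lower and 2 higher in the allograft, a share below 0 (66.7%) near the 58.5% of all such genes. Frzb, known from articular cartilage, read 428 in the allograft, against 698 in the autograft (log2 ratio -0.71, or 1.63-fold lower). Dkk1 read 318 in the allograft against 474 in the autograft (-0.58); its promoter is the one printed above with CTTTGAA. Wif1 read 467 in the allograft against 656 in the autograft (-0.49), and Sfrp4 read 1901 in the allograft against 2634 in the autograft (-0.47). The second probe set of Frzb was below the floor on both arrays (allograft 61.2, autograft 134). Each of these 4 antagonists was lower in the allograft by less than 2-fold.

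Sfrp2, another Wnt-binding antagonist, read 1335 in the allograft against 1142 in the autograft, a log2 ratio of 0.22. Dkk3, a divergent member of the Dkk family, read 914 in the allograft against 873 in the autograft (0.07), and its second probe set 714 in the allograft against 528 in the autograft (0.44). These were the antagonists with higher values in the allograft. Dkk2 and Dkk4 were below the floor on both arrays, as was Sfrp5, with intensities between 6.4 and 108. With the floor at the 75th percentile, 5 antagonists were left and their median was -0.23, against -0.49 over the 7 above the floor as described, and over probe sets without a letter mark it was -0.23 for 6 genes.

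Sfrp1 was the antagonist whose probe sets disagreed. The brightest read 34.4 in the allograft, against 314 in the autograft, a bound of at least 1.79-fold lower. By its letter mark that probe set may also match transcripts of other genes. A second read 175.8 in the allograft against 65.2 in the autograft, just above the floor in the allograft alone, and the other 2 were below the floor on both arrays (56.9 in the allograft against 48.6 in the autograft and 18.6 in the allograft against 34.5 in the autograft). The direction for Sfrp1 therefore rests on the probe set chosen.

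Ctnnb1, which encodes beta-catenin, read 8356 in the allograft, against 7211 in the autograft (log2 ratio 0.21), and its second probe set 1597 in the allograft against 1339 in the autograft (0.25). Under quantile normalization the ratio of Ctnnb1 was -0.09, and with the trend of the ratio with intensity removed it was -0.08, so its direction depended on the scaling. Dvl1, a Dishevelled protein, read 2447 in the allograft against 2108 in the autograft (0.21) and 549.6 in the allograft against 466 in the autograft (0.24) in its 2 probe sets. These ratios of Ctnnb1 and Dvl1 stood at the 79.4 and 79.6 percentiles of the 7101 genes above the floor on both arrays.

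Apc and Axin1, scaffolds of the destruction complex, read 379.6 in the allograft against 355 in the autograft (log2 ratio 0.10) and 289 in the allograft against 282 in the autograft (0.04). Axin2, both a scaffold and a target gene that beta-catenin is known to induce, read 200.0 in the allograft against 228 in the autograft (-0.19), with a second probe set below the floor on both arrays (allograft 5.5, autograft 10.3). Gsk3b, the kinase of the complex, was above the floor on the autograft array alone (allograft 104.5, autograft 179), at least 1.02-fold lower. Dvl2 and Dvl3 were below the floor on both arrays, between 6.9 and 122. So were the third probe set of Ctnnb1 (allograft 10.5, autograft 73.6), the second of Axin1 (allograft 68.3, autograft 35.8) and both further ones of Apc, between 5.7 and 49.7.

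The Tle genes, which encode the Groucho corepressors that hold Tcf and Lef target genes silent, had both the lowest and the highest ratios among the members. Tle5, a short family member known to modulate the longer ones, read 532 in the allograft, against 1339 in the autograft. Its log2 ratio of -1.33 was the 12th lowest of the 7101 genes above the floor on both arrays. Tle2, a full-length corepressor, read 199.4 in the allograft against 449.8 in the autograft, a log2 ratio of -1.17 and the 26th lowest. Tle6, a divergent member, passed the floor in the autograft alone (allograft 157, autograft 235), and its bound is at least 1.34-fold lower.

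The other Tle genes ran both ways. Tle4 read 426 in the allograft, against 269.6 in the autograft, a log2 ratio of 0.66 and the only member at least 1.5-fold higher. Tle3 read 482 in the allograft against 372 in the autograft (0.38), and Tle1 read 380.2 in the allograft against 462 in the autograft (-0.28). The further probe sets of Tle1, Tle3 and Tle4 were below the floor on both arrays, between 41.9 and 111, and Tle2, Tle5 and Tle6 have 1 probe set each. Lef1, the transcription factor that carries beta-catenin to DNA, was below the floor on both arrays (allograft 10.8, autograft 12.9). The probe sets of Tle2 and Tle5 carry a letter mark for alternative transcripts of 1 gene, so a count over probe sets without any letter mark holds 0 members at least 2-fold lower.

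Tle5, Tle2 and Tle6 lie side by side on mouse chromosome 10 with no other protein-coding gene between them in the same gene order, while Tle1, Tle3 and Tle4 lie on other chromosomes. The flanking genes were examined after the Tle values had been seen. Of the 10 protein-coding genes on each side, 8 had a probe set of their own and 7 of these were above the floor. A ratio below 0 was found in 5 of the 7, against 58.5% of all genes above the floor on both arrays. Their median log2 ratio was -0.56, against -0.07 for all those genes. At least 2-fold lower were 2 of the 7, against 0.676% of all those genes. Whether the region differs from others was not tested. Gna11, a G protein subunit next to Tle5, read 570.3 in the allograft against 1172 in the autograft (log2 ratio -1.04), with a second probe set at -0.43. Ankrd24, separated from Tle6 by Sirt6 alone, which has no probe set of its own here, read 273 in the allograft against 547 in the autograft and was also at least 2-fold lower, and its second probe set, above the floor on the autograft array alone, read 115 in the allograft against 329 in the autograft. The genes Dohh (-0.72), Nfic (-0.56) and Ncln (-0.49) were also lower, whereas S1pr4 (0.28) and Fzr1 (0.24) were higher. Of the nearest flanking genes, Gna11 and Ankrd24 were at least 2-fold lower, S1pr4 was higher, and Gna15, between S1pr4 and Gna11, was below the floor on both arrays.

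**Figure D4:**
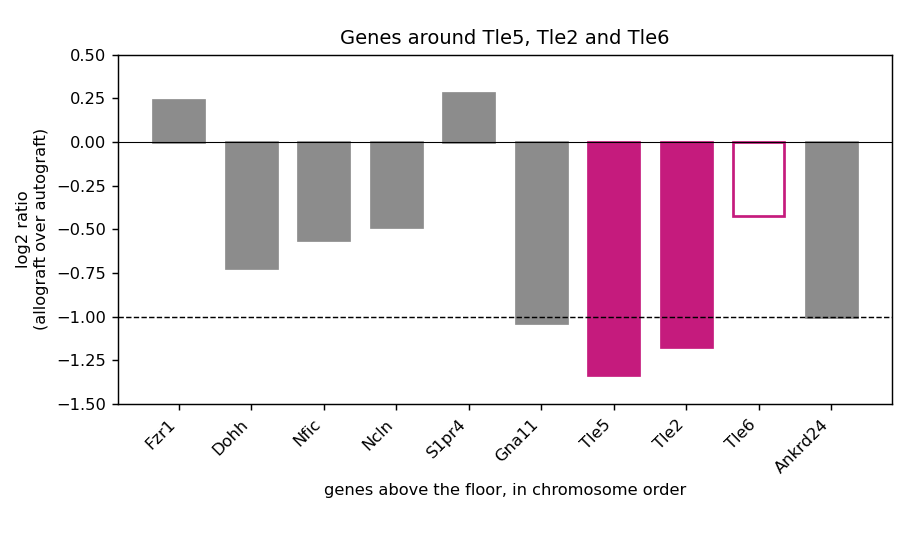
Log2 ratio of allograft over autograft for the genes above the floor among Tle5, Tle2, Tle6 (coloured) and the 10 protein-coding genes on each side, in chromosome order. The open bar of Tle6 is a bound and the dashed line marks 2-fold lower; Gna11, Tle5, Tle2 and Ankrd24 reach it, while S1pr4 and Fzr1 stand above 0.

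Further pathway genes outside the members were taken from lists by role. Of 131 listed genes 107 had a probe set and 69 were above the floor on at least 1 array, 46 of them below 0 and 23 above (66.7% below, against 59.5% of all named genes above the floor). Of the 46, 4 passed the floor on the autograft array alone and could only come out lower. None of the 69 was 2-fold apart. At least 1.5-fold lower were 5 (7.25%) and at least 1.5-fold higher 3 (4.35%), close to the 6.56% and 4.00% of all named genes above the floor. Their median log2 ratio was -0.14, against -0.08 for all genes.

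Genes of ligand export and of the R-spondins had a median of -0.32 over 8 genes. Porcn, the enzyme that attaches the lipid to Wnt proteins, read 180.5 in the allograft, against 341 in the autograft (log2 ratio -0.92), and Notum, which removes that lipid, 251 in the allograft against 366 in the autograft (-0.54). Rspo2, a secreted enhancer of Wnt signalling, read 297 in the allograft against 194 in the autograft (0.61), and Sulf2, a sulfatase of cell-surface sugars, 843 in the allograft against 642 in the autograft (0.39). Of the other receptors and antagonists 4 were above the floor: Ror2, a Wnt5a receptor, on the autograft array alone (allograft 101, autograft 244, at least 1.39-fold lower), Apcdd1, an antagonist (-0.27), Ryk, a Wnt receptor (0.32), and Shisa2, of a family known in frog to retain Frizzled receptors inside the cell (0.34). Sost, the osteocyte antagonist sclerostin, was below the floor on both arrays (allograft 29.2, autograft 167).

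Intracellular components had a median of -0.17 over 23 genes, from Frat2, which binds Gsk3 (log2 ratio -0.46), and Siah1a, a ubiquitin ligase (-0.41), to Csnk1a1, the casein kinase of the destruction complex (0.40), and Fbxw11, a subunit of the ligase that recognises beta-catenin (0.74, with a second probe set at -0.22). Nuclear partners had a median of -0.14 over 17 genes. Ctnnbip1, which blocks the binding of beta-catenin to Tcf factors, read 278 in the allograft against 459.7 in the autograft (-0.73), with a second probe set at -0.27, and Pygo2, a coactivator, read 412 in the allograft against 603 in the autograft (-0.55). The highest nuclear partners were Ruvbl2, a chromatin ATPase (0.13), and Tcf7l2, a Tcf factor (0.08).

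Target genes known from various tissues had a median of 0.01 over 17 genes, 8 below 0 and 9 above. Tnfrsf19, a receptor of the TNF receptor family, read 507 in the allograft, against 922 in the autograft (log2 ratio -0.86), and Ccn1, a matrix-associated signalling protein, 549.9 in the allograft against 948 in the autograft (-0.79), with a second probe set at -0.44. Birc5, a survival and cell division protein, read 1240.1 in the allograft against 797 in the autograft (0.64), and Twist1, a transcription factor of mesenchyme, 342 in the allograft against 251 in the autograft (0.45). The listed target genes thus had no shared direction.

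**Figure D5:**
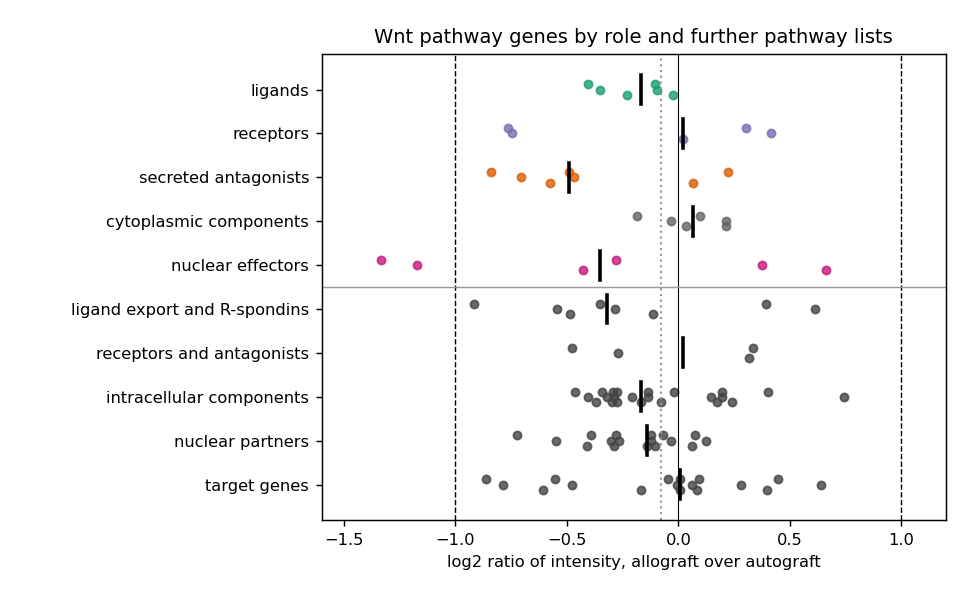
Log2 ratio of allograft over autograft for the Wnt pathway genes above the floor by role (coloured, above the grey line) and for further pathway genes by list (grey), with a bar at each median, dashed lines at 2-fold and a dotted line at the median of all named genes (-0.08). The medians run from -0.49 for the secreted antagonists to 0.07 for the cytoplasmic components, and target genes centre on 0.01.

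Other signalling pathways serve as a comparison. Hedgehog genes had a median log2 ratio of -0.47 over 6 genes above the floor and BMP and TGF-beta genes of -0.14 over 30, against -0.14 over the 30 Wnt genes. Of these, 3 BMP and TGF-beta genes and 6 Wnt genes passed on the autograft array alone and could only come out lower. Over genes above the floor on both arrays the medians were -0.47 for the hedgehog, -0.12 for the BMP and TGF-beta and -0.06 for the Wnt genes. No test of these differences could be made.

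Markers of bone, cartilage and marrow cells also differed between the arrays. Beside the counts that follow, 59.5% of all named genes above the floor were below 0. The osteocyte markers above the floor were all below 0 (5 of 7 listed genes, summed intensity of all 7 at 4317 in the allograft and 6007 in the autograft), and 8 of 9 cartilage markers above the floor were below 0, among them Hapln1, which passed on the autograft array alone (summed intensity of 12 genes 21191 in the allograft against 26209 in the autograft). All 8 osteoblast markers with a probe set were above the floor, and 4 were below and 4 above 0 (summed intensity 29316 in the allograft against 23023 in the autograft). The sum and the median log2 ratio of this list (-0.27) ran opposite ways: Col1a1, Col1a2 and Sparc were more than 2-fold higher in the allograft, and Alpl, Sp7, Phex and Omd were lower. Ibsp was counted above 0 by its brightest probe set (0.05), but its second probe set was at -0.56. All 8 erythroid markers and all 9 neutrophil markers with a probe set were above 0 (summed intensity 23258 in the allograft against 12637 in the autograft for the erythroid list, and 46476 in the allograft against 35157 in the autograft for the neutrophil list). The erythroid ratios had a median of 1.04 and a lowest value of 0.38 (Tfrc). The neutrophil ratios had a median of 0.40 and a lowest value of 0.18 (S100a8), which is below the 0.21 of the brightest probe sets. Of the skeletal muscle markers 5 of 8 were above 0 (summed intensity 30536 in the allograft against 22258 in the autograft), and of the macrophage markers 3 of 5 (20923 in the allograft against 17629 in the autograft). Most of the macrophage gap came from the brightest probe set of Csf1r (8219 in the allograft against 5221 in the autograft), whose other probe sets had log2 ratios of -0.03 and -0.59. Below the floor on both arrays were Sost and Fgf23 of the osteocyte list and Col9a2, Matn1 and Sox9 of the cartilage list, and 0 listed markers were at 0. The part of these markers in the Wnt values was not tested, and fewer cells of a type cannot be told apart from less RNA per cell in such samples.

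The arrays also differed in other measures. Over 10 intensity bins the median log2 ratio ran from -0.13 at an intensity near 342 to 0.21 in the brightest bin, and the beta-actin control probe sets at the 3' end were brighter than those at the 5' end by 1.77 times in the allograft and 1.19 times in the autograft, a ratio known to grow as RNA degrades. The same ratio for Gapdh was 0.194 in the allograft, against 0.0349 in the autograft. Unlike beta-actin, Gapdh was dimmer at the 3' end than at the 5' end on both arrays. It read 1576.8 against 8122.3 in the allograft and 233.0 against 6670.7 in the autograft. The part of RNA quality was not tested. With the trend with intensity removed, Tle5 and Tle2 were still at least 2-fold lower, and 6 members were at least 1.5-fold lower and 1 higher, as with the values as deposited.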

How the data were processed

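The authors deposited a table of probe set intensities on a linear scale for 2 arrays. How they were made, with which software, background correction and scaling, is not given in the sources used here. The 2% trimmed means over all probe sets were 500.2 (allograft) and 500.1 (autograft), so the deposited intensities were used without further normalization. Of 22690 probe sets 64 controls were left out. Gene names came from the platform's probe table, which gave a single symbol to 20380 of the other 22626, more than 1 to 691 and no entry for 1555; names were taken only where the symbol was single, and the Entrez identifiers of 20351 matched RefSeq of GRCm38.p6. The median of all non-control values served as the floor, and the probe set brightest on average stood for its gene. No probe set listing several genes held a Wnt member.

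Every member was reported, and of each list of further pathway genes the 2 highest and 2 lowest ratios. Members and lists were chosen with earlier results of these data known, and the flanks of the Tle genes were added after their values were seen. No test was made, since each graft type has 1 array, whose number limits the precision. The alternatives were quantile normalization, 2 centrings, a floor at the 25th or at the 75th percentile, log2 of the intensity plus 16 without a floor, other choices of probe set, and genes above the floor on both arrays; subtraction of a lowess trend with intensity (span 0.4) was chosen after seeing the data. The computation was tested on simulated data with large changes placed in bright genes alone. Small changes and values near the floor were not covered by it. The tools were statsmodels 0.14.6 for lowess, matplotlib 3.10.9 for figures, pandas 2.3.3, numpy 2.4.6 and scipy 1.17.1, under Python 3.11.15.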

Additional observations from a re-analysis of the deposited data

How the results depend on the processing

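The counts depended mostly on the floor. With the floor at the 25th percentile (50.6), 45 members were above it, 7 at least 2-fold lower, 14 at least 1.5-fold lower and 2 at least 1.5-fold higher. Of the 10665 named genes above that floor, 240, 1197 and 574 were. Members above that floor on the autograft array alone could only come out lower, among them Sfrp1, Wnt10a and Sfrp5 of the 7. With no floor and 16 added, 8 of 55 members were at least 2-fold lower and 18 at least 1.5-fold lower. Of all 12393 named genes, 428 and 1478 were. Higher by at least 2-fold and 1.5-fold were 0 and 1 members, against 236 and 757 of all named genes. With the floor at the 75th percentile (561.5), 9 members were left, 1 at least 2-fold lower, 1 at least 1.5-fold lower and 0 at least 1.5-fold higher. Of the 4230 named genes above that floor, 16, 151 and 171 were. Over probe sets without a letter mark, those of Tle2, Tle5 and the brightest of Sfrp1 are left out. There 0 of 25 members were at least 2-fold lower and 3 at least 1.5-fold lower. Of the 6125 named genes above the floor by such probe sets, 52 and 440 were. The other 34 counts of members under the 11 alternatives were within 1.5 times of those reported. The 116 medians by role or list moved by less than the probe set SD of 0.44, as did 286 of 297 ratios of single members. The other 11 were those of Sfrp1, Wnt5a, Wnt5b, Gsk3b and Fzd2. That SD is wider than most role medians, so a median could move by less and still change sign. The receptor median ran from -0.30 to 0.13, below 0 in 4 of 10 alternatives. The nuclear median ran from -0.43 to 0.05, below 0 in 9 of 10. The ligand and antagonist medians stayed below 0 and the cytoplasmic median above it. The sign for the ligands was partly fixed, since Wnt5a, Wnt5b and Wnt6 passed the floor of 175.2 on the autograft array alone. Over the 3 ligands above the floor on both arrays the median was -0.10. Tle5 stayed between -1.33 and -1.25 in 10 alternatives and Tle2 between -1.17 and -1.06 in 9; neither had a value in every alternative. The median over the Wnt members ran from -0.27 to 0.07. No paired analysis was possible because each graft type has 1 array. Signal near the floor limits the ligands and receptors most, since 19 of these 30 genes were below it on both arrays.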
